A study of Mus musculus with 12 samples.

Results

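The genes described here are 8 members of the interleukin-12 and interleukin-10 cytokine families in RAW264.7, a macrophage-like mouse cell line. They were picked by symbol from the 31719 genes of the expression table: Il12a, Il12b, Il23a, Il27, Ebi3, Il10, Il10ra and Il10rb. No cutoff on measured values was applied, but earlier results of these data were known when the genes were chosen. All 8 symbols were found, each in 1 entry. Wild-type cells were sequenced in 4 groups of 3 libraries: untreated cells, an anti-CD36 antibody alone (diluted 1 to 100), LPS alone (50 ng/ml), and the same antibody and LPS combined. LPS is the bacterial lipopolysaccharide sensed by Toll-like receptor 4, and CD36 is a scavenger receptor for lipids. The labels give no time of treatment and no group with an isotype control antibody, so an effect of binding CD36 and an effect of adding an antibody cannot be told apart. Nor do they state that the replicates of a group were grown apart, so every p-value measures only the spread between these libraries.

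Interleukin-12 family cytokines are secreted as pairs of subunits that are shared between cytokines. Il12b encodes p40, which pairs with p35 (Il12a) to make IL-12 and with p19 (Il23a) to make IL-23, while Ebi3 pairs with p28 (Il27) to make IL-27 and with p35 to make IL-35. Activated macrophages and dendritic cells are usual sources of IL-12, IL-23 and IL-27. IL-12 and IL-23 are known for steering T cells towards interferon gamma and IL-17 production. Interleukin-10 restrains macrophage activation. It acts through a receptor of a ligand-binding chain, Il10ra, and a chain shared with other family members, Il10rb, which signal through JAK1, TYK2 and STAT3.

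Of the subunit genes, Ebi3 was read in every library while Il12b and Il12a were at or near 0, so the promoters of these genes are shown side by side. Each sequence is the 250 bases before the start of transcription, plus strand, from the RefSeq promoter table for GRCm38.p6. Entries matched 3 of the 8 genes, these 3, with a second start for Il12a that is not shown.
Il12b, chr11:44399813-44400062: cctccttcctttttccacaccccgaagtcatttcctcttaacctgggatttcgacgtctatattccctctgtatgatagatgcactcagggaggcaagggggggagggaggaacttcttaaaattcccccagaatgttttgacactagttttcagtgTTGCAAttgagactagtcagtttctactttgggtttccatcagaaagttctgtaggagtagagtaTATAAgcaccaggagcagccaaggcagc
Ebi3, chr17:55952373-55952622: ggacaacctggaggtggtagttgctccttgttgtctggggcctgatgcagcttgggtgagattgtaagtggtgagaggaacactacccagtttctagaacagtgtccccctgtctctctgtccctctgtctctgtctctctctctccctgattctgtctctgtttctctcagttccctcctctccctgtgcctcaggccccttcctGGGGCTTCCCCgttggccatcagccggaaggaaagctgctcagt
Il12a, chr3:68690394-68690643: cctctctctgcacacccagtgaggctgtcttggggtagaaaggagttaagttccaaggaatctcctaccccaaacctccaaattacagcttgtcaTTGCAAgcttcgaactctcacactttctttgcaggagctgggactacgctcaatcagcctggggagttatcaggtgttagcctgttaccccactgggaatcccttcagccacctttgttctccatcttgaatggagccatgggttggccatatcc
Capitals mark matches to 5 patterns searched on both strands. The kappa B pattern of NF-kappa B was GGG and CC with any 5 bases between them, and the AP-1 pattern was TGANTCA. The pattern of interferon regulatory factors was GAAA, repeated after any 2 bases. The C/EBP pattern was TTGCAA. The TATA box was searched as TATAA. The patterns were chosen with these sequences in view. The Il12b promoter held TTGCAA at positions −93 to −88 and TATAA at −28 to −24. In Ebi3, 2 overlapping kappa B matches ran from −44 to −35 and from −43 to −34. The first Il12a start had TTGCAA at −155 to −150, and the second start held the kappa B pattern. Of 32851 promoters of the same length, 45.8% held the kappa B pattern, 6.75% TGANTCA, 2.98% the repeated GAAA, 5.34% TTGCAA and 22.8% TATAA. A match is a description of the letters and not evidence of a bound site. A site that departs from these letters would not be marked, so a missing match does not show that a site is absent.

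Levels are FPKM, the authors' read counts scaled for gene length and library depth, so levels of different genes can be set side by side. Since FPKM of 1 gene move in steps of 1 read, the number of reads behind a value could be worked out. Libraries held 30070448 to 54137813 reads, with 14211 to 14877 genes above 0. Between 62.3% and 69.1% of counts under 10 were even. If both mates of a read pair were often counted separately, which was not tested, the reads given here overstate the number of independent molecules. The macrophage genes Csf1r (141 to 230 FPKM in group means) and Cd68 (375 to 624) were high in all groups, and 9 of 10 macrophage markers were tested. Mertk, the other one, stayed at or below 0.0459 FPKM. With LPS limma called 5 of the 9 higher and 2, Csf1r and Cd68, lower, beside 16.6% and 33.1% of all tested genes. The summed macrophage list was 3904 to 5004 FPKM in untreated libraries and 4875 to 5205 with the antibody. It was 5487 to 7102 FPKM with LPS and 6516 to 7059 with both. Lyz2 made up most of that sum, at 3140 to 4054 FPKM in group means. Cd14 went from 529 FPKM in untreated cells to 1569 with LPS. Of the 8 dendritic cell markers only Itgax, which macrophages also express, reached the level for testing, and it rose with LPS by 0.80 ± 0.08 (SE) on the log2 scale, with an adjusted p of 6.31e-06. The summed dendritic list was 1.81 to 2.08 FPKM in untreated libraries, 1.90 to 2.30 with the antibody, 4.04 to 4.39 with LPS and 5.01 to 5.59 with both, and Flt3 stayed at or below 0.0176 FPKM. Itgax made up most of the dendritic sum, at 1.70 FPKM in untreated cells and 3.69 with LPS. The part of these markers in the results below was not tested. Of the 10 T, B and NK cell markers 5 were at 0 in all libraries, and the sum of the list was at most 0.424 FPKM. Cd36 itself, the target of the antibody, was at 0.170 ± 0.041 FPKM (SD, n = 3) in untreated cells, 0.379 ± 0.111 with the antibody, 5.86 ± 1.47 with LPS and 11.2 ± 0.97 with both.

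**Figure D1:**
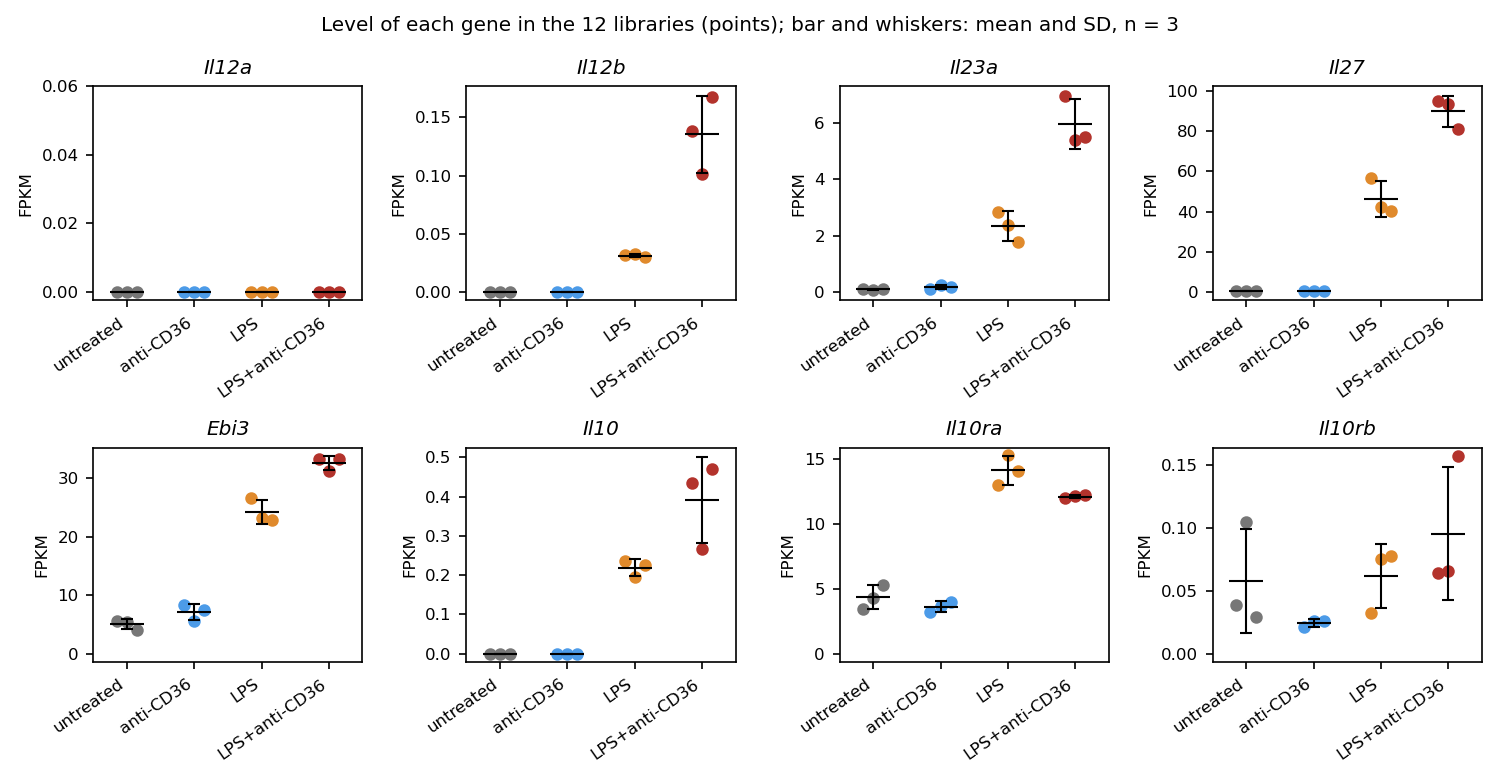
Level of each of the 8 genes in FPKM (vertical axis, linear, its own scale in each panel) in the 12 libraries (points) of the 4 groups, with the mean and SD of each group (bar and whiskers, n = 3). Il27 went from 0.548 FPKM in untreated cells to 46.2 with LPS and 89.8 with LPS and antibody, while Il12a was 0 in all 12 libraries.

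LPS was associated with much higher levels of both subunits of IL-27 and of the p19 subunit of IL-23, and with a little Il12b and no Il12a. Il10 was read only in the LPS groups, at under 0.5 FPKM, and Il10ra was about 3.2 times higher with LPS. When the antibody was added to LPS, Il23a was 2.55 times and Il27 1.94 times as high as with LPS alone, whereas Ebi3 and Il10ra moved by less than the test could separate. Antibody alone moved none of them past the threshold.

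Il12a, the p35 subunit shared by IL-12 and IL-35 (chromosome 3, 68690644 to 68698547, plus strand; here and below, the GENCODE M21 annotation of GRCm38), was at 0 reads in all 12 libraries. With a limit of 3 reads, a count of 0 allows 0.0326 to 0.0587 FPKM per library. Over a whole group the same limit is 0.0140 to 0.0181 FPKM. Such limits cover counting error only.

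Il12b (chromosome 11, 44400063 to 44414033, plus strand) encodes p40, the subunit that IL-12 and IL-23 have in common. It had 0 reads in each of the 6 untreated and antibody libraries. With LPS it had 2 reads in each of the 3 libraries, or 0.0315, 0.0323 and 0.0300 FPKM, and with LPS and antibody 10, 8 and 16 reads, or 0.138, 0.101 and 0.167 FPKM. The 3 libraries with both agents lay above the 3 with LPS alone, which lay above the other 6. Mean levels were 4.33 times higher with both agents than with LPS alone (0.135 ± 0.033 against 0.0312 ± 0.0011 FPKM, SD, n = 3, exact two-sided permutation p = 0.1, the smallest that 3 against 3 libraries allow). The limit of 3 reads per group was set only on the group at 0, and the other reads were taken as exact. The folds are therefore not firm lower bounds. On that footing Il12b was 2.46-fold higher with LPS than without, from 6 reads. With both agents it was 8.88-fold higher than with antibody alone, from 34 reads. All of these counts are even, so the 6 reads may be as few as 3 fragments, and the small SD of the LPS group is that of equal counts. Il12b was below the level for testing. In the limma fit without a filter it reached an adjusted p of 0.00157 for both agents against LPS and 2.44e-05 against antibody alone, while for LPS against untreated cells it was 0.081. The spread was shared with groups at 0 reads or at equal counts. These p-values therefore do not measure the spread of the group with both agents.

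Il23a (chromosome 10, 128296139 to 128298752, minus strand) encodes p19, the subunit that makes p40 into IL-23. Untreated libraries had 0.115, 0.0592 and 0.0986 FPKM, antibody libraries 0.0937, 0.236 and 0.175, LPS libraries 2.85, 2.37 and 1.79, and libraries with both agents 6.95, 5.38 and 5.51. All 3 libraries with both agents lay above all 3 with LPS alone, and those above the other 6, among which the antibody and untreated libraries overlapped. Group means were 0.0910 ± 0.0287, 0.168 ± 0.072, 2.34 ± 0.53 and 5.95 ± 0.87 FPKM (SD, n = 3). The untreated and antibody groups rest on 26 and 36 reads in all, the LPS groups on 511 and 1665. LPS raised Il23a 25.7 times over untreated cells, a change of 1.60 ± 0.12 (SE) on the log2(FPKM + 1) scale, which understates the change of low genes (limma adjusted p = 5.96e-07). Both agents together gave 35.3 times the level of antibody alone (2.57 ± 0.12, adjusted p = 1.09e-08).

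Il27 (chromosome 7, 126589010 to 126594941, minus strand) encodes p28, the subunit specific to IL-27. It was at 0.326, 0.586 and 0.732 FPKM in untreated libraries and at 0.567, 0.585 and 0.482 with the antibody. LPS libraries had 56.5, 42.0 and 40.2 FPKM, and libraries with both agents 95.1, 93.3 and 80.9. The lowest library with both agents was thus well above the highest with LPS alone, and the untreated and antibody libraries overlapped. Il27 rose 84.4 times with LPS (means 0.548 ± 0.206 and 46.2 ± 9.0 FPKM, SD, n = 3), or by 4.92 ± 0.13 (SE) on the log2 scale, with a limma adjusted p of 9.77e-11. With both agents it reached 89.8 ± 7.8 FPKM, 165 times the 0.545 ± 0.055 FPKM of antibody alone (5.87 ± 0.13, adjusted p = 1.41e-11). In the annotation 103 of the 1021 exon bases of Il27 (10.1%) overlap Apobr on the other strand. The strand setting of the libraries is not given in the sources used here, so reads there cannot be assigned. Apobr had 18.2, 19.6, 34.1 and 34.5 FPKM in the 4 groups in the same order.

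Ebi3 (chromosome 17, 55952640 to 55957022, plus strand), the partner subunit of IL-27 and IL-35, was the member with the highest mean in untreated cells. Untreated libraries had 5.62, 5.33 and 4.06 FPKM and antibody libraries 8.24, 5.58 and 7.45. LPS libraries had 26.6, 23.2 and 22.8 FPKM and libraries with both agents 33.3, 31.1 and 33.2. The LPS groups lay above the others without overlap, the libraries with both agents lay above those with LPS alone, and only the untreated and antibody groups overlapped. Ebi3 rose 4.84 times with LPS (means 5.0 ± 0.83 and 24.2 ± 2.1 FPKM, SD, n = 3; log2 change 2.08 ± 0.13, SE; limma adjusted p = 1.44e-07) and 4.59 times with both agents over antibody alone (7.09 ± 1.37 and 32.5 ± 1.2 FPKM; 2.07 ± 0.13; adjusted p = 1.48e-07). An antisense gene, Gm16712, shares 270 of the 1154 exon bases of Ebi3 (23.4%), and its own level was 1.06, 1.06, 5.56 and 6.33 FPKM in the 4 groups, so part of the Ebi3 level is uncertain.

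Il10 (chromosome 1, 131019845 to 131024974, plus strand) had 0 reads in each of the 6 libraries without LPS. With LPS it had 10, 8 and 10 reads (0.236, 0.194 and 0.225 FPKM), and with both agents 21, 14 and 30 reads (0.435, 0.265 and 0.471 FPKM). The lowest library with both agents was above the highest with LPS alone, though by little. The means were 0.218 ± 0.022 and 0.390 ± 0.110 FPKM (SD, n = 3), a ratio of 1.79 with an exact two-sided permutation p of 0.1, the smallest possible. Again the limit of 3 reads was set only on the group at 0, and the other reads were taken as exact. So computed, Il10 was 11.5-fold higher with LPS than without, and 17.0-fold higher with both agents than with antibody alone. It was below the level for testing. In the limma fit without a filter its adjusted p was 0.000872 for LPS against untreated cells, 2.89e-05 for both agents against antibody alone, and 0.0377 for both agents against LPS. The spread was shared with the groups at 0, so these p-values do not measure the spread of the LPS groups alone.

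Il10ra (chromosome 9, 45253837 to 45269149, minus strand), the ligand-binding chain of the IL-10 receptor, had 3.46, 4.31 and 5.28 FPKM in untreated libraries and 3.17, 3.69 and 3.98 with the antibody. LPS libraries had 13.0, 15.3 and 14.0 FPKM and libraries with both agents 12.0, 12.1 and 12.2. It was the only member whose libraries with both agents all lay below those with LPS alone. Il10ra rose 3.24 times with LPS (means 4.35 ± 0.91 and 14.1 ± 1.1 FPKM, SD, n = 3; log2 change 1.51 ± 0.12, SE; limma adjusted p = 6.93e-07) and 3.35 times with both agents over antibody alone (3.61 ± 0.41 and 12.1 ± 0.13 FPKM; 1.51 ± 0.12; adjusted p = 7.08e-07). No annotated exon of another gene overlaps its exons.

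Il10rb (chromosome 16, 91406164 to 91425834, plus strand), the shared signalling chain, was read in all 12 libraries, but with only 3 to 29 reads each. Group means were 0.0576 ± 0.0412 FPKM in untreated cells, 0.0243 ± 0.0030 with antibody, 0.0617 ± 0.0253 with LPS and 0.0953 ± 0.0531 with both agents (SD, n = 3). The antibody libraries, at 0.0207, 0.0261 and 0.0259 FPKM, lay below all the other 9, each from 3 reads. The limma fit without a filter called no change of Il10rb in any of the 5 comparisons (adjusted p from 0.0774 to 0.967), and the groups with LPS overlapped (0.0325 to 0.0775 and 0.0641 to 0.157 FPKM). In the annotation 569 of its 3808 exon bases (14.9%) lie in a read-through gene, Gm21970, that also overlaps its neighbour Ifnar2, so part of the level is uncertain. Gm21970 has no entry of its own in the expression table. Whether Il10rb lost reads through this overlap was not tested. Ifnar2 had 3.46 to 6.15 FPKM in group means.

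Of the 8 members, 4 reached 1 FPKM in at least 3 of the 12 libraries and were tested: Il23a, Il27, Ebi3 and Il10ra. Il23a and Il27 did so only through the LPS groups, so they had to differ there, and the count of members called is a description. All 4 were called higher with LPS than in untreated cells, where 16.6% of all 10276 tested genes were called higher and 33.1% lower, and all 4 with both agents against antibody alone, where 16.3% were called higher and 31.3% lower. LPS shifted the median of all genes by −0.14 and, with antibody present, by −0.12 on the log2 scale. With median-of-ratios scaling these shifts were −0.011 and −0.0056, and the genes called higher made up 50.8% and 50.5% of those called in place of 33.4% and 34.2%. The 4 members kept their direction and their call under that scaling.

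**Figure D2:**
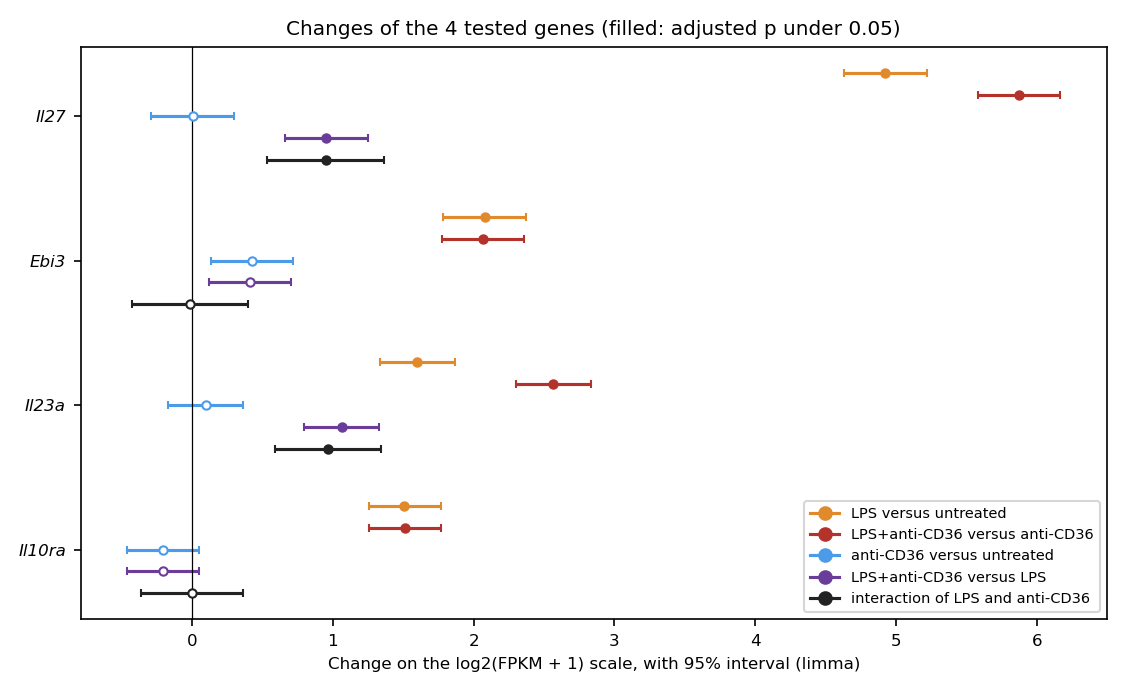
Changes of the 4 tested genes on the log2(FPKM + 1) scale (horizontal axis), with 95% intervals from limma, for the 4 pairwise comparisons and the interaction. Filled points have an adjusted p under 0.05. The LPS changes of Il27 are 4.92 without and 5.87 with antibody, and those of Ebi3 are 2.08 and 2.07.

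Antibody alone against untreated cells asks whether the antibody acts on unstimulated cells. None of the 4 tested members was called by limma, and 0.341% of all tested genes were called (35, with 1969 at an unadjusted p under 0.05). Of the called genes 42.9% were higher, against 32.4% with median-of-ratios scaling and 61.1% with values rescaled to the same sum in each library (TPM). Among the members only Ebi3 had an unadjusted p under 0.05, with 1.42 times the untreated level, a log2 change of 0.43 (95% interval 0.13 to 0.72, adjusted p = 0.159). The intervals of the others were −0.29 to 0.30 for Il27, −0.17 to 0.36 for Il23a and −0.46 to 0.05 for Il10ra. Across genes, the antibody changes tracked base composition and length: Spearman's rho over 10092 genes, which are not independent, was 0.55 with GC content and −0.51 with length. With the trend of each library on both removed, an alternative added after the data were seen, the Ebi3 change was 0.15 (adjusted p = 0.366).

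Adding the antibody to LPS was the comparison in which members parted. Il23a rose by 1.06 ± 0.12 (SE) on the log2 scale (2.34 to 5.95 FPKM, adjusted p = 0.000235), and Il27 by 0.96 ± 0.13 (46.2 to 89.8 FPKM, adjusted p = 0.000994). Both were higher in 3 of 3 libraries, and 7.34% of all tested genes were called higher and 8.14% lower. Ebi3 was 1.34 times as high, a change of 0.41 (95% interval 0.12 to 0.70) that did not pass the test (adjusted p = 0.0566), and Il10ra was at 0.858 of its LPS level, a change of −0.20 (−0.46 to 0.05, adjusted p = 0.236). Ebi3 passed in a fit of only the LPS groups (adjusted p = 0.0343) and with a replicate block (0.0144). It also passed without untreated replicate 3 (0.0311), antibody replicate 2 (0.0324) or LPS replicate 1 (0.0246). The changes of all genes again tracked GC content (rho 0.37) and length (−0.50). With those trends removed Il23a rose by 0.89 (adjusted p = 0.000151) and Il27 by 0.66 (adjusted p = 0.0173), and Ebi3 was at 0.12 (adjusted p = 0.354). With values rescaled to TPM, 31.8% of the called genes were higher in place of 47.4%. Il23a and Il27 were called higher there too, with adjusted p of 0.00131 and 0.0138.

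The interaction, how much larger the LPS change was when antibody was present, was 0.97 ± 0.17 (SE) for Il23a (limma adjusted p = 0.0164) and 0.95 ± 0.19 for Il27 (adjusted p = 0.0329), both in the direction of a larger LPS change with the antibody. Of all tested genes 0.496% were called in that direction and 0.788% in the other. With values rescaled to TPM, 27.5% of the called genes were in that direction in place of 38.6%. Several alternatives ended these calls. In ratios of mean FPKM, the LPS change of Il23a was 25.7 without and 35.3 with antibody, and with a pseudocount of 0.1 its interaction had an adjusted p of 0.474. It also missed the threshold with values rescaled to TPM (0.105). That rescaling raised the values of every library, so the pseudocount of 1 weighed less there too, and 11520 genes passed the filter. Leaving out antibody replicate 1 (0.0527), antibody replicate 3 (0.0549), LPS replicate 2 (0.0501) or LPS+anti-CD36 replicate 1 (0.0535) also ended the Il23a call. The interaction of Il27 missed the threshold in 15 of 21 alternatives, with adjusted p up to 0.31. They include leaving out any 1 library other than untreated replicate 1 and LPS replicate 1 (0.0565 to 0.12). Without a filter Il27 missed it as well (0.075), while Il12b, which is not in the filtered fit, had an interaction of 0.14 ± 0.02 (SE, adjusted p = 0.0356) from its few reads. The p-value of Il12b rests on a spread shared with groups at 0 reads. For Ebi3 the interaction was −0.01 (95% interval −0.42 to 0.40) and for Il10ra 0.00073 (−0.36 to 0.36), both with an adjusted p of 1. The pairwise comparisons share libraries with one another, so their changes are given side by side and were not correlated.

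Set against each other within a library, the 2 subunits of IL-27 changed places. The ratio of Il27 to Ebi3 was 0.116 ± 0.062 (SD, n = 3) in untreated libraries and 0.0795 ± 0.0221 with the antibody, so Ebi3 was in excess. With LPS it was 2.12, 1.81 and 1.76, and with both agents 2.86, 3.00 and 2.44, without overlap between those groups. The subunits of IL-23 were far from balance. Il23a was 74.6 ± 15.6 times as high as Il12b with LPS and 45.6 ± 11.0 times with both agents, each LPS value resting on 2 reads of Il12b. Il10 was 7.01 ± 0.87 times as high as Il12b with LPS and 2.87 ± 0.27 times with both agents, with the same thin counts. Il10ra was 65.4 ± 12.2 and 33.1 ± 11.0 times as high as Il10. These ratios describe RNA and were not tested, and in bulk RNA fewer cells with a transcript and less of it per cell cannot be told apart.

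**Figure D3:**
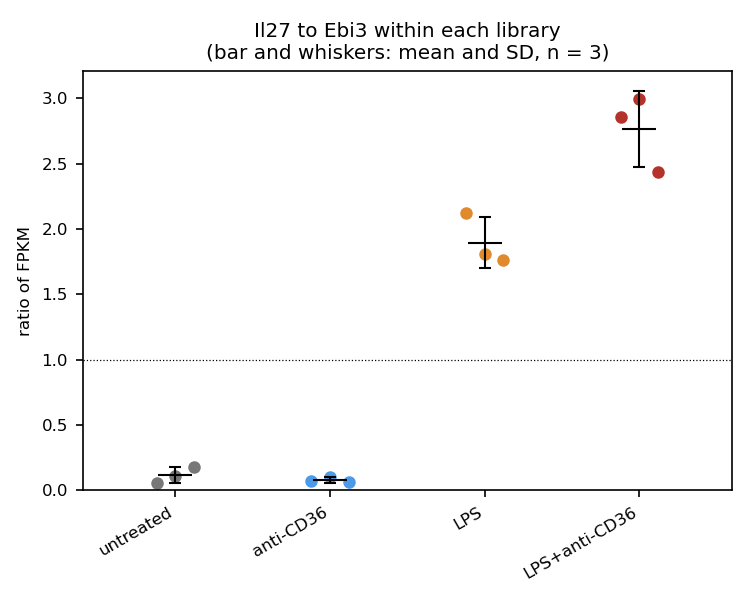
Ratio of Il27 to Ebi3 FPKM (vertical axis, linear, from 0) in each library (points) of the 4 groups, with mean and SD (n = 3); the dotted line marks equal levels. The 6 libraries without LPS lie between 0.0580 and 0.181, those with LPS between 1.76 and 2.12, and those with both agents between 2.44 and 3.00.

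In order of level, untreated cells had Ebi3 and Il10ra first, at 5.0 and 4.35 FPKM, whose libraries overlapped. Il27 followed at 0.548 FPKM, then Il23a and Il10rb, which overlapped, and then Il12a, Il12b and Il10 at 0. With LPS the order was Il27, Ebi3, Il10ra, Il23a, Il10, Il10rb, Il12b and Il12a, with no overlap between neighbours, although Il10rb and Il12b lay within a few reads of each other. With both agents the first 5 kept that order without overlap. Il12b, at 0.135 FPKM, came above Il10rb, at 0.0953, with overlapping libraries.

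Genes with the most similar profile over the 12 libraries, by Pearson's r of log2(FPKM + 1), are given as a description, since r mostly reflects the 4 group means. For Il27 they were Crybg2, Csf2 and Socs3 (r of 0.999 each). For Il23a they were Timp1, Il1f6 and the proteasome subunit gene Psma6 (0.995 each). For Ebi3 they were Dusp5 and the oligoadenylate synthetase family genes Oasl1 and Oas1g (0.997 each), and for Il10ra Lrrc8d and Lcp2 (0.995) and Rffl (0.994). Csf2, which encodes the growth factor GM-CSF, had 34.2 FPKM with LPS and 69.8 with both agents.

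Receptor chains specific to IL-12, IL-23 and IL-27 were near 0, and shared chains were read at low levels. Of 11 listed receptor and signalling genes 6 were tested. Il12rb1, the receptor chain that IL-12 and IL-23 share, had 0.695 to 0.925 FPKM in group means. Il6st, the partner chain of the IL-27 receptor, had 2.44 to 3.48 FPKM and was not called in any of the 5 comparisons (limma adjusted p from 0.197 to 1). Il12rb2, Il23r, Il27ra and Stat4 stayed at or below 0.171 FPKM in every library. With LPS 2 of the 6 rose and 1 fell, beside 16.6% and 33.1% of all tested genes (median change 0.35 against −0.14). Stat3, which carries IL-10 and IL-23 signals, rose by 0.64 and the kinase gene Tyk2 by 0.46. Il6ra, a subunit of the IL-6 receptor, fell by 1.23 on the log2 scale, from 8.67 ± 0.38 to 3.13 ± 0.16 FPKM (SD, n = 3). Il6ra was also the only one called with both agents against LPS, at 1.99 ± 0.17 FPKM (−0.47, adjusted p = 0.0049; list median −0.23 against 0.02), beside 8.14% of all genes called lower. With both agents against antibody alone 3 rose and 1 fell, beside 16.3% and 31.3% of all genes, led by Il6ra (−1.55), Jak2 (0.57) and Stat3 (0.54).

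Of the 11 other IL-10 family ligands and receptors, 9 were at 0 in all 12 libraries, among them Il20, Il22 and Il24. Il19 reached at most 0.173 FPKM. Only Il20rb, a receptor chain for IL-19, IL-20 and IL-24, was tested, at 1.77 to 2.30 FPKM in group means, and no comparison called it.

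Genes known to respond to IL-10 and STAT3 in macrophages rose with LPS in 7 of 8 tested cases (10 listed), beside 16.6% of all tested genes (median 2.15 against −0.14). Il1rn, the IL-1 receptor antagonist, rose by 3.99, Socs3, a feedback inhibitor of cytokine receptors, by 3.94, and Ddit4, an inhibitor of mTORC1, by 2.95. With both agents against LPS 3 rose and 2 fell, beside 7.34% and 8.14% of all genes (median 0.07 against 0.02). Bcl3, an atypical I kappa B protein, rose by 0.79 (4.44 ± 1.29 to 8.21 ± 0.41 FPKM, SD, n = 3, adjusted p = 0.004) and Socs3 by 0.64 (36.5 ± 7.0 to 56.8 ± 3.5 FPKM, adjusted p = 0.00476). Ddit4 fell by 1.22 (56.2 ± 10.0 to 23.6 ± 3.8 FPKM, adjusted p = 0.000431). The other called genes, Il1rn (0.50) and Etv3 (−0.40), were named after their values were seen. Ddit4 was the only one with a called interaction, at −1.04 (adjusted p = 0.0374). With both agents against antibody alone 7 rose, beside 16.3% of all genes, led by Socs3 (4.52), Il1rn (4.13) and Hmox1 (2.57).

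Among 24 listed regulators of Il12b and Il10 transcription or mRNA decay, 20 were tested. With LPS 11 rose and 1 fell, beside 16.6% and 33.1% of all genes (median 0.62 against −0.14). Batf, among those that rose, reached 1 FPKM only in the LPS groups, so it had to differ there. Its group means were 0.102 FPKM in untreated cells, 0.138 with antibody, 2.12 with LPS and 3.58 with both agents. Nfkbiz, the atypical I kappa B protein that Il12b transcription is known to need, rose by 4.22 (2.61 ± 0.52 to 66.3 ± 7.6 FPKM, SD, n = 3), and Atf3, a repressor of Il12b, by 3.80. Zfp36, which encodes the mRNA decay factor tristetraprolin, rose by 2.95. The 1 that fell, named after its value was seen, was Irf3 (−0.33). With both agents against LPS 3 rose and 3 fell, beside 7.34% and 8.14% of all genes (median 0.05 against 0.02). Atf3 fell by 1.22 (81.4 ± 3.3 to 34.5 ± 0.5 FPKM, adjusted p = 4.12e-05), Sp1 fell by 0.64 and Batf rose by 0.56. The others, named after their values were seen, were Nfkbid (0.43), Irf3 (0.39) and Stat6 (−0.24). Nfkbiz itself changed by −0.35 (adjusted p = 0.0666). The interaction was called for Atf3 alone, at −1.16 (adjusted p = 0.00263). With both agents against antibody alone 11 rose and 4 fell, beside 16.3% and 31.3% of all genes, with Nfkbiz (4.21), Atf3 (2.64) and Zfp36 (2.61) in the lead. Batf was again among those that rose and had to differ. For antibody alone against untreated cells limma called no gene of these 4 lists.

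**Figure D4:**
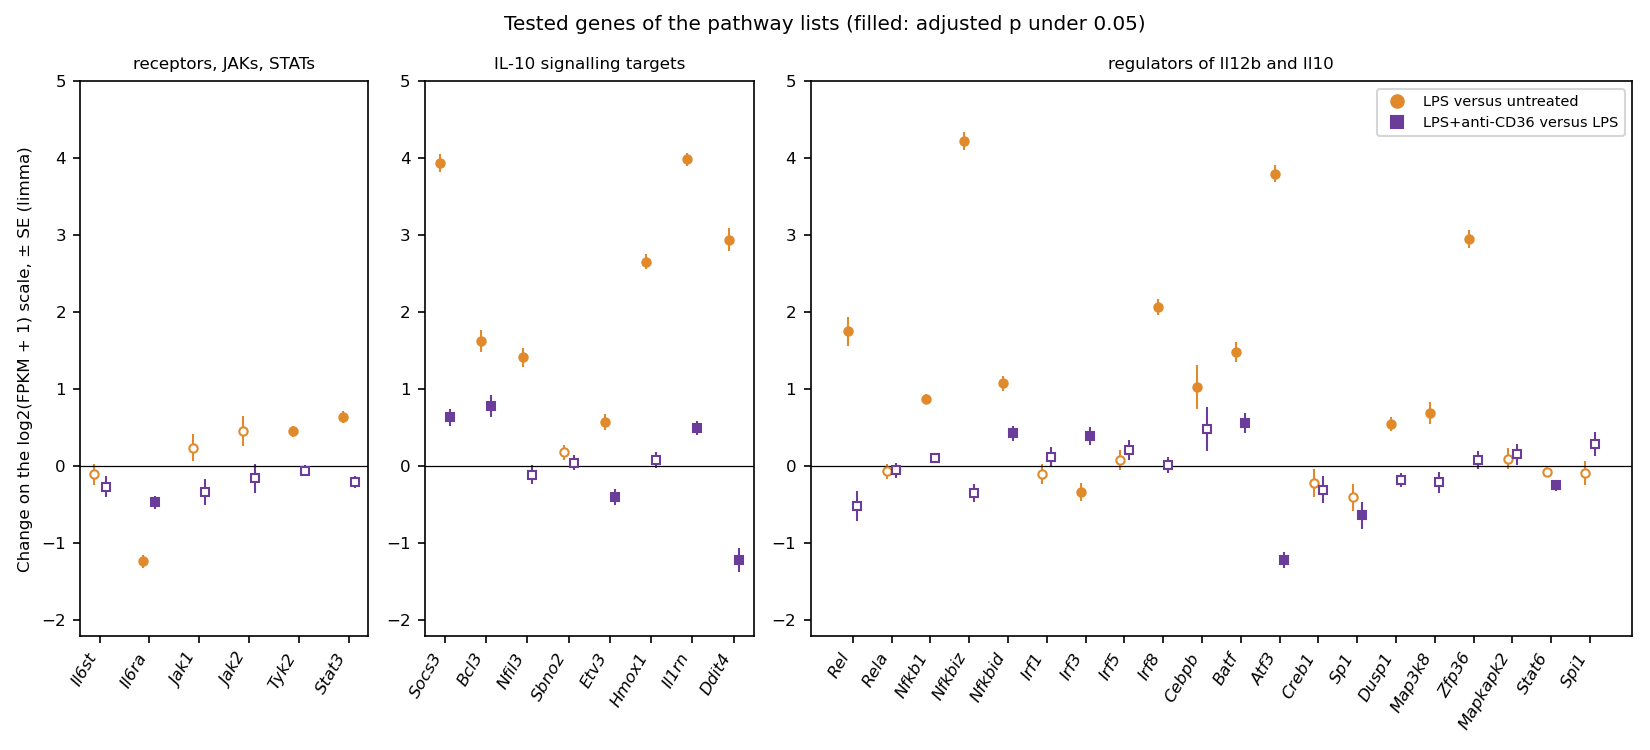
Changes of the tested genes of 3 pathway lists on the log2(FPKM + 1) scale (vertical axis) with their SE from limma, for LPS against untreated cells (circles) and for LPS with antibody against LPS (squares); filled symbols have an adjusted p under 0.05. Nfkbiz (4.22), Il1rn (3.99) and Socs3 (3.94) show the largest LPS changes, and Atf3 and Ddit4 (−1.22 each) the largest changes when antibody was added to LPS.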

How the data were processed

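RNA of 12 RAW264.7 libraries was sequenced, and 1 table of 31801 gene entries was used. Its values are FPKM, computed by the authors and deposited with 1 column per library; no column was unmapped (0). The submitters' processing notes list HISAT2 2.0.5 and the builds mm39 and hg38, without roles. The counting tool, annotation, filters and strand setting are not given in the sources used here. The 82 repeated entries were left out, keeping the entry of highest mean. Il6 was left out of the fit, since its 6 values in untreated and antibody libraries equalled those of Gm10874.

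Reads behind each value were recovered from the value steps and GENCODE M21 exon lengths with Python 3.11.15, numpy 2.4.6, pandas 2.3.3 and scipy 1.17.1; 94.6% to 94.7% of values per library came out whole within 0.005 reads. These lengths and all coordinates belong to GRCm38, not to mm39. Log2(FPKM + 1) of the 10276 genes reaching 1 FPKM in 3 or more libraries was fitted with limma-trend (limma 3.58.1 in R 4.3.3), with a mean for each of the 4 groups. P-values were Benjamini-Hochberg adjusted over all genes tested, per comparison, and called under 0.05. The fit was tested on simulated data. A count model was not used, since the table holds FPKM. The fit without a filter also covered every gene above 0 in at least 1 library.

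The replicate numbers carry no stated pairing and were not used as a block. Named were all 8 members, the 3 tested genes most correlated with each tested member (no predicted genes or pseudogenes), the 3 called genes of largest change in each pathway list and comparison, and Cd36. A further listed gene is not reported here. The members and lists were chosen with earlier results of these data known. Alternatives were other pseudocounts (0.1, 0.5), filters (none, 5 FPKM), scalings, only the groups compared, no intensity trend, a replicate block and leaving out each library. Removing GC content and length trends was added after the data were seen, and 98.2% of tested genes had both values.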

Additional observations from a re-analysis of the deposited data

Results flagged for a closer look

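A difference between the LPS response without and with antibody was called for 2 of the 4 tested members, Il23a and Il27. Of all tested genes 0.496% were called for a higher LPS change with antibody and 0.788% for a lower one. Both members passed the filter only through the LPS groups, so the count is a description. For Il23a the LPS change on the log2(FPKM + 1) scale was larger with the antibody by 0.97 (limma adjusted p = 0.0164, 0.0044 to 0.474 over its alternatives). For Il27 it was larger by 0.95 (adjusted p = 0.0329, 0.00311 to 0.31 over its alternatives). The direction was the same in all 21 alternatives for both. In Il23a the smallest and largest values were 0.84 and 1.08, and in Il27 0.86 and 1.10. The alternatives share libraries, so their agreement is not independent support. The call was lost in 6 of the 21 for Il23a and in 15 of the 21 for Il27. In ratios of mean FPKM, the LPS change of Il23a was 25.7 without and 35.3 with antibody. The groups without LPS rest on 26 and 36 reads of Il23a. Il12b was tested only without a filter on low values, where its interaction was 0.14 (limma adjusted p = 0.0356). That p-value rests on a spread shared with groups at 0 reads.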

How the results depend on the processing

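LPS against untreated cells, and both agents against antibody alone, kept direction and call for Il23a, Il27, Ebi3 and Il10ra in all alternatives run (22 each), as did Il23a and Il27 for both agents against LPS. Il23a and Il27 passed the filter only through the LPS groups, so that they kept their LPS calls is a description. The cause of each change below was not tested. For antibody alone, the replicate block called 1 member in place of 0 (Ebi3, adjusted p = 0.0359). All genes called there were 18 with rescaling to TPM, 1 with only the groups compared, 1164 with the replicate block and 393 with GC content and length trends removed, in place of 35. For both agents against LPS, 4 members were called without a filter in place of 2, the added ones being Il12b and Il10, with 1260 of all genes called in place of 1590. The replicate block called 3, with Ebi3 added (adjusted p = 0.0144). All genes called were 979 with only the groups compared, 3645 with the replicate block and 2393 with the trends removed, in place of 1590. For the interaction, the fit without a filter called 2 members, Il23a and Il12b, in place of Il23a and Il27. Members called were 0 with a pseudocount of 0.1, 1 with 0.5, 0 with rescaling to TPM and 1 with the trends removed, in place of 2, and all genes called were 85 with the stricter filter, 212 with the replicate block and 355 with the trends removed, in place of 132. No value exists for the interaction with only the groups compared, since it needs all 4.

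Leaving out 1 library at a time gave 1 to 131 genes called for antibody alone, 549 to 3965 for both agents against LPS and 61 to 157 for the interaction. The 3965 came without LPS replicate 1, and the low values without LPS replicate 2 (568), LPS replicate 3 (734) and LPS+anti-CD36 replicates 1 (611), 2 (549) and 3 (818). Members called ran from 2 to 3 for both agents against LPS and from 0 to 2 for the interaction. Sign changes came only in changes that were never called. For antibody alone these were Il23a (−0.0352 with the trends removed) and Il27 (−0.0398 with rescaling, −0.26 with the trends removed, −0.10 to 0.0907 leaving out libraries). For the interaction they were Il10ra (−0.011 with median-of-ratios scaling, −0.0076 with rescaling, −0.12 to 0.12 leaving out libraries) and Ebi3 (−0.15 to 0.11 leaving out libraries).

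Same-numbered libraries correlated by −0.317 to 0.811 in their deviations over 18 pairs, 10 of them above 0.1, and 7 of 12 libraries correlated best with their own number. Replicate 1 pairs ran from 0.446 to 0.784. Replicate 3 pairs ran from 0.545 to 0.811, but from −0.0653 to 0.0338 where the antibody-alone library was in the pair. Replicate 2 pairs ran from −0.317 to 0.433, and unlike numbers from −0.836 to 0.69. Part of the spread thus went with the number in some libraries, but not in others. Antibody replicate 2 correlated with untreated replicate 3 (0.69) and LPS replicate 3 (0.672). Deviations sum to 0 within a group, so negative values between unlike numbers are partly forced. The labels state no pairing, so the main fit used no block. Depth limits Il12a, Il12b, Il10 and Il10rb, which have at most 30 reads in any library.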
